A study of Mus musculus with 10 samples.

Results

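Epithelial and mesenchymal identity was followed through 10 genes in tumours grown under the skin from 4T1 cells, a line from a mouse mammary carcinoma. The 7 epithelial members were Epcam, Cdh1, Cldn3, Cldn4, Cldn7, Esrp1 and Grhl2, and the 3 mesenchymal members were Vim, Zeb1 and Cdh2. They were chosen by name, as textbook markers and regulators of both states, out of 52324 named genes, and each was taken as the sum of its named transcripts. RNA was collected on day 14 from 10 libraries in 5 groups of 2. The treated groups were Free-MK1775, the same with NLG919 (Free-MK1775+NLG919), then Lipo-MK1775 and its own combination (Lipo-MK1775+NLG), all set against the negative control. The series' text gives PBS for the control and NLG919 as the added agent of both combinations, and Free and Lipo are the labels' names for the forms of MK1775. MK1775 is an inhibitor of the kinase WEE1, and NLG919 acts on the IDO1 pathway of tryptophan breakdown. No source used here gives doses, the mouse strain, the make-up of the forms or whether each library is its own mouse, so p-values measure only the spread between these libraries.

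Epithelial cells hold together through adherens junctions, built on the cadherin encoded by Cdh1, and through tight junctions, built on claudins. In epithelial-mesenchymal transition (EMT), transcription factors such as ZEB1 and SNAI1 bind E-boxes in epithelial promoters and repress them, while vimentin filaments and, in some cells, N-cadherin are gained. ESRP1 sets epithelial splicing and GRHL2 activates epithelial genes. A subcutaneous tumour also holds stroma and can be excised with skin, whose epidermis expresses the same epithelial genes. In RNA of a whole tumour, fewer cells of a type and less RNA per cell cannot be told apart.

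Promoters are shown for Epcam and Cldn4, whose single windows each held more than 1 copy of the E-box searched. One of the Cldn7 windows also did and is not shown. The letters searched were CACCTG and their reverse complement CAGGTG, which covers both strands, in RefSeq windows (GRCm38.p6) from 250 bases before to 50 after each start. Of 32851 windows, 20.2% held at least 1 match and 2.88% held 2 or more. Windows were at hand for 5 members. The Epcam window and the Cldn4 window each had 2 matches, the Cldn3 window had 1, the Cldn7 windows had 0 and 2, and the Vim window had 0. The bases upstream of the start are given 5′ to 3′ on the gene's strand, with matches in capitals: Epcam at chr17:87635729-87635978 on the plus strand, and Cldn4 at chr5:134946935-134947184 on the minus strand.
Epcam: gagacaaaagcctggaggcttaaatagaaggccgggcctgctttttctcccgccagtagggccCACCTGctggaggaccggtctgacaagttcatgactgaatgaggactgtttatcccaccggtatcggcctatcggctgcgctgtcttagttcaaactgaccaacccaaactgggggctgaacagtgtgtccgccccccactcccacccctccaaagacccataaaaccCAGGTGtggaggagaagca
Cldn4: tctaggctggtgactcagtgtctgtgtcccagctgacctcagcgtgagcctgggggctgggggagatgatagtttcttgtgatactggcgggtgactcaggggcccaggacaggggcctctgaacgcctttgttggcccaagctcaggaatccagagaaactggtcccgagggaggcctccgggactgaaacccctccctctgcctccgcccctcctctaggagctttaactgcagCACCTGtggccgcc
Counted from the start, the Epcam matches begin at -187 and -19. The Cldn4 matches begin at -14 and, beyond the bases printed, at 12, and the Cldn3 match begins at 32. A match describes the letters and is not a binding site shown by these data.

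Levels are given as nuclear TPM, the deposited FPKM of a gene rescaled so that the nuclear transcripts of each library sum to 1000000. This scale was used because mitochondrial transcripts held 47.3% of the FPKM in Free-MK1775+NLG919 replicate 2, 64.1% in Lipo-MK1775 replicate 1 and 56.0% in Lipo-MK1775 replicate 2, against 2.88 to 4.82% in the other 7 libraries. Both Lipo-MK1775 libraries are among these 3, so Lipo-MK1775 and a high mitochondrial share cannot be told apart. Another set of 3 libraries carried epidermal RNA: Krt5, a keratin of basal epidermis, was at 44.8 in Free-MK1775 replicate 2, 335 in Lipo-MK1775+NLG replicate 2 and 230 nuclear TPM in negative control replicate 1, and at most 0.480 in the others. The summed level of 10 epidermal genes was 399, 1038 and 1464 nuclear TPM in those 3 libraries, in the same order, with every gene detected. It was 3.62 to 9.20 in the other 7, where 4 to 7 of the 10 genes were listed at 0. The simple-epithelial keratins Krt8 and Krt18 were present in every library, at 292 to 759 and 638 to 1093 nuclear TPM.

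Across the 10 libraries the members covered a wide range of levels, and the per-length scale allows genes to be compared. Vim, the main intermediate filament of mesenchymal cells, had a median of 1555 nuclear TPM. Cldn3 had a median of 31.6 nuclear TPM, Cdh1 5.61, Cldn4 4.71 and Zeb1 3.40. Epcam had a median of 0.703 nuclear TPM, Grhl2 0.295, Cldn7 0.261 and Cdh2 0.226, and Esrp1 was listed at 0 in 7 libraries. Vim, Cldn3, Cldn4, Cdh1 and Zeb1 were listed above 0 in every library. For Cldn4 the lowest value, 0.127 nuclear TPM in Lipo-MK1775 replicate 1, rests on about 0.960 reads by the gauge described below. Cldn7, Grhl2 and Cdh2 reached 1 nuclear TPM in fewer than 2 libraries and were left out of the test, which covered the other 7 members among 15440 genes.

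**Figure D1:**
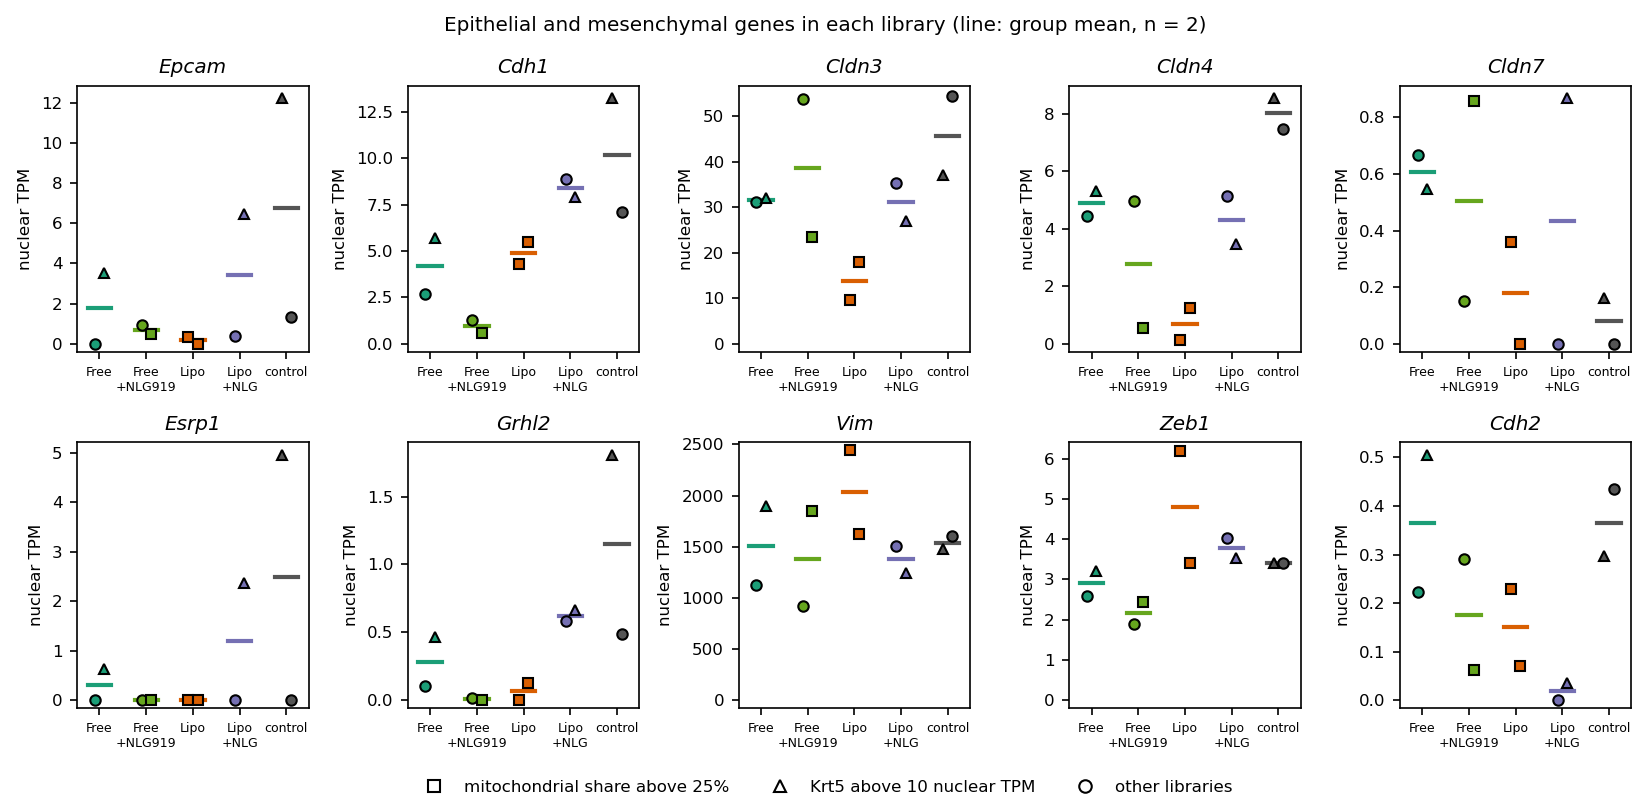
Level of each of the 10 genes in nuclear TPM (vertical axes from 0, linear) by treatment group, with 1 point per library and a line at the mean of 2 libraries. Squares are libraries with a mitochondrial share above 25%, triangles those with Krt5 above 10 nuclear TPM. Cldn4 in all 8 treated libraries lies below both controls, and the triangles are the highest points for Epcam and Esrp1.

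Among the surface and junction genes, Cldn4 was lower in every treated tumour than in both controls. Cldn4 encodes a tight-junction claudin and lies on chr5:134973973-134975788 in the GRCm39 annotation of the deposited table. It was at 4.45 and 5.33 nuclear TPM in Free-MK1775 tumours, 4.98 and 0.566 in Free-MK1775+NLG919, 0.127 and 1.26 in Lipo-MK1775 and 5.14 and 3.47 in Lipo-MK1775+NLG, against 8.55 and 7.48 in the negative control. All 8 treated libraries were below both controls, also on the deposited FPKM scale and after median-of-ratios scaling. Of all genes tested, 9.18% showed this pattern on the nuclear scale, 7.43% on the FPKM scale and 6.11% after median-of-ratios scaling. The depth behind the low values was small. With the commonest step of FPKM times length in a library taken as 1 read, the lowest Cldn4 value rests on about 0.960 reads in Lipo-MK1775 replicate 1, followed by 8.81 in Free-MK1775+NLG919 replicate 2 and 14.5 in Lipo-MK1775 replicate 2, against 55.8 to 194 in the other libraries.

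Cldn3, a second tight-junction claudin at chr5:135015068-135016326, was the most abundant epithelial member. It was at 31.2 and 32.0 nuclear TPM in Free-MK1775 tumours, 53.8 and 23.4 in Free-MK1775+NLG919, 9.73 and 18.0 in Lipo-MK1775 and 35.4 and 27.0 in Lipo-MK1775+NLG, against 37.1 and 54.4 in the negative control. On the nuclear scale the 2 Lipo-MK1775 libraries were the lowest of all 10, and 7 of 8 treated libraries were below both controls. On the deposited FPKM scale and with median-of-ratios scaling, 6 of 8 were below and 1 was above both controls. With median-of-ratios scaling Lipo-MK1775 replicate 2 was at 26.2, above Free-MK1775 replicate 2 at 25.6 and Lipo-MK1775+NLG replicate 2 at 22.4. The share of all genes with such counts is not given here. The lowest value rests on about 51.0 reads and the highest on 903.

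Cdh1, the epithelial cadherin at chr8:107329983-107396878, was lowest in Free-MK1775+NLG919. It was at 2.70 and 5.73 nuclear TPM in Free-MK1775 tumours, 1.30 and 0.591 in Free-MK1775+NLG919, 4.29 and 5.50 in Lipo-MK1775 and 8.87 and 7.91 in Lipo-MK1775+NLG, against 13.3 and 7.12 in the negative control. Of the treated libraries, 6 of 8 were below both controls on the nuclear and FPKM scales, and 4 of 8 with median-of-ratios scaling. Those of Lipo-MK1775+NLG lay between the controls. No share of all genes is given for these counts. The value of 1.30 came from a library of low mitochondrial share and the 0.591 from one of high share, with about 76.5 and 22.5 reads behind them. Free-MK1775+NLG919 and Lipo-MK1775 had no epidermal library, while Free-MK1775, Lipo-MK1775+NLG and the negative control had 1 each. Cdh1 was highest in the epidermal control. In Lipo-MK1775+NLG the epidermal replicate 2, at 7.91, was below replicate 1, at 8.87. The part of epidermal RNA in Cdh1 differences was not tested.

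Epcam, the epithelial cell adhesion molecule at chr17:87943407-87958557, followed the epidermal libraries. It was at 0 and 3.52 nuclear TPM in Free-MK1775 tumours, 0.920 and 0.486 in Free-MK1775+NLG919, 0.350 and 0 in Lipo-MK1775 and 0.408 and 6.47 in Lipo-MK1775+NLG, against 12.2 and 1.32 in the negative control. The 3 highest values were in the 3 libraries with Krt5, and the other 7 were between 0 and 1.32. The deposited transcripts of Epcam also split by library. The signal of Free-MK1775 replicate 2, Lipo-MK1775+NLG replicate 2 and both controls was assigned to ENSMUST00000234623, and that of the Free-MK1775+NLG919 libraries, Lipo-MK1775 replicate 1 and Lipo-MK1775+NLG replicate 1 to ENSMUST00000053577.

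Cldn7, a claudin of lateral membranes, was below 1 nuclear TPM everywhere. It was at 0.666 and 0.546 nuclear TPM in Free-MK1775 tumours, 0.150 and 0.859 in Free-MK1775+NLG919, 0.360 and 0 in Lipo-MK1775 and 0 and 0.867 in Lipo-MK1775+NLG, against 0.161 and 0 in the negative control. On the nuclear scale 0 of 8 treated libraries were below both controls and 5 were above. With deposited FPKM or median-of-ratios scaling 6 were above. The values rest on 0 to 9.48 reads, and differences at this depth were not detectable.

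The highest value of each epithelial regulator was in a library with epidermal RNA. Esrp1, the epithelial splicing regulator on chromosome 4, was at 0.626 in Free-MK1775 replicate 2, 2.37 in Lipo-MK1775+NLG replicate 2 and 4.96 nuclear TPM in negative control replicate 1, and was listed at 0 in the other 7 libraries. Those 3 are the libraries with Krt5. Grhl2, the grainyhead-like activator on chromosome 15, was at 0.106 and 0.462 nuclear TPM in Free-MK1775 tumours, 0.0176 and 0 in Free-MK1775+NLG919, 0 and 0.127 in Lipo-MK1775 and 0.584 and 0.662 in Lipo-MK1775+NLG, against 1.81 and 0.484 in the negative control. Its highest value was in the control with the most epidermal RNA. Lipo-MK1775+NLG replicate 1 and negative control replicate 2, with no more than 9.20 nuclear TPM of epidermal RNA, still held 0.584 and 0.484. Both lay above the 0.462 of Free-MK1775 replicate 2, an epidermal library. The part of epidermal RNA in group differences of Epcam, Esrp1 and Grhl2 was not tested.

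**Figure D2:**
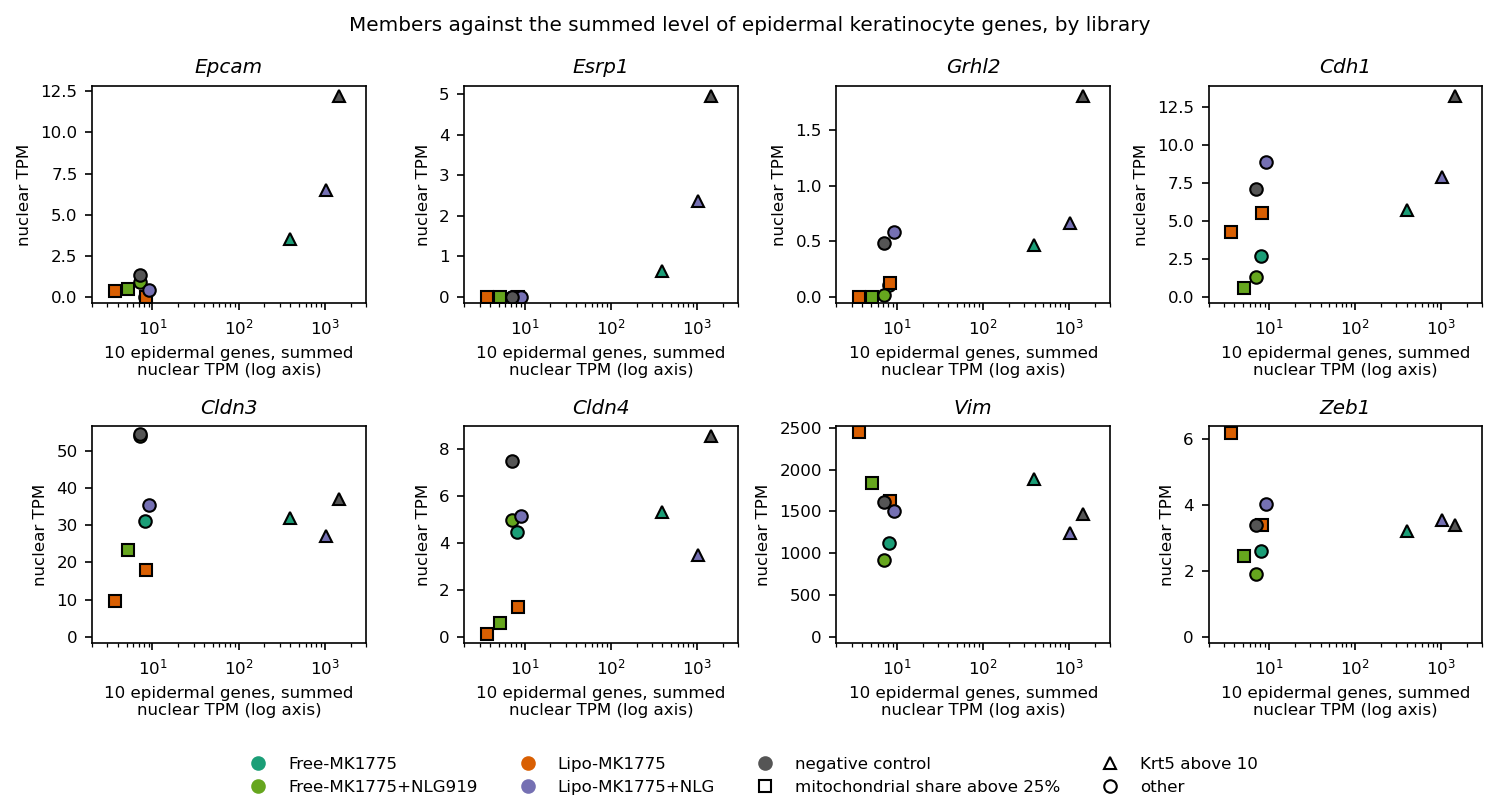
Level of 8 members (vertical axes, nuclear TPM, linear) against the summed level of 10 epidermal keratinocyte genes (horizontal log axis, nuclear TPM), with 1 point per library coloured by group. The 3 triangles at the right, between 399 and 1464, are the highest points for Epcam and Esrp1, while Cldn3 spans its whole range, 9.73 to 54.4, among the libraries at 3.62 to 9.20.

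Among the mesenchymal members, Vim dominated, and its value depends on which transcripts of the locus are summed. The transcripts named Vim, at chr2:13578738-13587637, held 1126 and 1893 nuclear TPM in Free-MK1775 tumours, 919 and 1845 in Free-MK1775+NLG919, 2445 and 1621 in Lipo-MK1775 and 1504 and 1246 in Lipo-MK1775+NLG, against 1472 and 1606 in the negative control. The deposited table also has 2 assembled transcripts of the locus with no gene name. With them the locus held 3585 and 4955 nuclear TPM in Free-MK1775 tumours, 3010 and 3371 in Free-MK1775+NLG919, 2955 and 3490 in Lipo-MK1775 and 3770 and 3494 in Lipo-MK1775+NLG, against 4702 and 4678 in the negative control. By the named sum, the highest library was Lipo-MK1775 replicate 1. By the whole locus, that library was the lowest of all 10.

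The share of the Vim locus under its name differed between libraries. It was 31.4 and 38.2% in Free-MK1775 tumours, 30.5 and 54.7% in Free-MK1775+NLG919, 82.7 and 46.4% in Lipo-MK1775 and 39.9 and 35.7% in Lipo-MK1775+NLG, against 31.3 and 34.3% in the negative control. The 3 highest shares were in the 3 libraries of high mitochondrial share. The main named transcript, ENSMUST00000028062 with 9 exons, and the assembled MSTRG.13487.1 with 10 exons are similar in length, at 2193 and 2119 bases, and how reads were divided between them is not given in the sources used here.

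**Figure D3:**
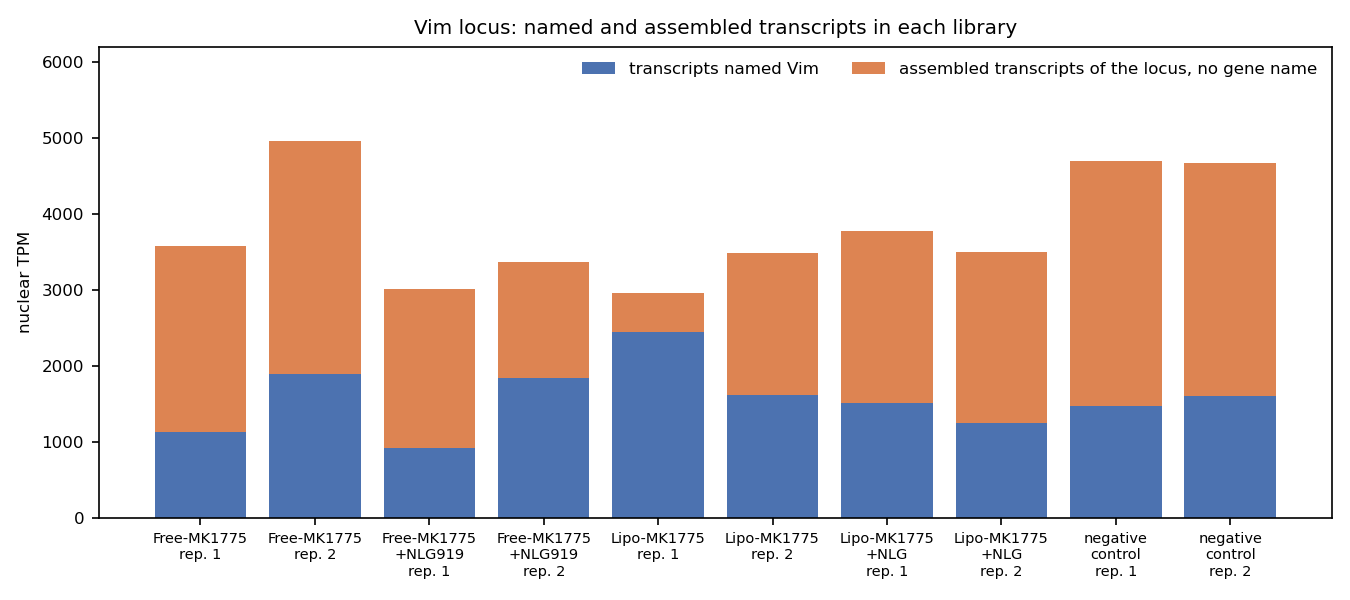
Vim locus in each library (vertical axis from 0, nuclear TPM), split into transcripts named Vim and assembled transcripts with no gene name. The named part is largest in Lipo-MK1775 replicate 1, at 2445, while the whole bar of that library is the lowest, at 2955.

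Zeb1, the E-box-binding repressor of epithelial genes on chromosome 18, differed 3.27-fold between its lowest and highest library. It was at 2.60 and 3.20 nuclear TPM in Free-MK1775 tumours, 1.89 and 2.44 in Free-MK1775+NLG919, 6.19 and 3.40 in Lipo-MK1775 and 4.04 and 3.54 in Lipo-MK1775+NLG, against 3.40 and 3.41 in the negative control. The value of 6.19 in Lipo-MK1775 replicate 1 included 3.20 from ENSMUST00000224200, a transcript of 399 bases, while the full-length ENSMUST00000025081 of 5801 bases was at 2.56 there, against 2.98 to 3.26 in the controls. Cdh2, the N-cadherin gene on the same chromosome, was at 0.222 and 0.506 nuclear TPM in Free-MK1775 tumours and 0.290 and 0.0617 in Free-MK1775+NLG919. It was at 0.230 and 0.0702 in Lipo-MK1775 and 0 and 0.0361 in Lipo-MK1775+NLG, against 0.296 and 0.436 in the negative control. The Cdh2 values rest on 0 to 24.9 reads. On the nuclear scale 7 of 8 treated libraries were below both controls for Cdh2 and 1 was above. For Zeb1 5 were below and 3 above, and for named Vim 3 were below and 4 above. The all-gene share for such counts is not given.

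Groups were compared by limma on log2(nuclear TPM + 1), with 1 mean per group over all 10 libraries and Benjamini-Hochberg adjustment over the 15440 genes. Fold changes on this scale understate changes of low genes. The median of all genes was itself shifted, at -0.06 for Free-MK1775, -0.44 for Free-MK1775+NLG919, -0.78 for Lipo-MK1775 and -0.02 for Lipo-MK1775+NLG against the control, so changes relative to that median are given for Free-MK1775+NLG919 and Lipo-MK1775.

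In Lipo-MK1775 tumours both abundant claudins fell. Cldn4 averaged 0.694 ± 0.802 nuclear TPM in Lipo-MK1775 and 8.02 ± 0.757 in the negative control (SD, n = 2 each), a log2 change of -2.50 (SE 0.62, limma adjusted p = 0.0339), or -1.72 relative to the median. Cldn3 averaged 13.9 ± 5.85 nuclear TPM in Lipo-MK1775 and 45.8 ± 12.2 in the negative control (SD, n = 2 each), a log2 change of -1.69 (SE 0.44, limma adjusted p = 0.0365), or -0.91 relative to the median. On the deposited FPKM scale Cldn4 was at -1.60 and with a pseudocount of 0.1 at -3.87, both called. The all-gene medians were -1.01 and -0.97 in these settings, and on the FPKM scale 47.4% of all genes were called lower. On the nuclear scale the 2 claudins were 2 of 7 members tested. There 21.1% of all genes were called, 19.6% as lower, so the count stands near the background. With median-of-ratios scaling neither was called, at -2.01 for Cldn4 (limma adjusted p = 0.0712) and -0.84 for Cldn3 (limma adjusted p = 0.126), and the split of all calls moved to 441 higher and 385 lower, against 233 higher and 3023 lower before. Both calls also ended without the 3 epidermal libraries (-2.41 for Cldn4 and -1.96 for Cldn3, limma adjusted p = 0.461 for each) and without any single library other than either of Free-MK1775+NLG919, the smallest changes being -1.99 for Cldn4 and -1.27 for Cldn3 without Lipo-MK1775 replicate 1.

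The other members tested in Lipo-MK1775 did not pass. Cdh1 was at -0.88 on the log2 scale (SE 0.45, limma adjusted p = 0.163), which is -0.10 relative to the median. Epcam was at -2.25 (SE 1.03, limma adjusted p = 0.124) and Esrp1 at -1.29 (SE 0.80, limma adjusted p = 0.235). Named Vim was at 0.37 (SE 0.37, limma adjusted p = 0.447), and with the assembled transcripts the direction turned, at -0.55 (SE 0.21, limma adjusted p = 0.0561). With median-of-ratios scaling named Vim was at 1.26 (limma adjusted p = 0.181). Zeb1 was at 0.35 (SE 0.37, limma adjusted p = 0.474). Relative to the median, named Vim was at 1.15, Zeb1 at 1.13, Epcam at -1.48 and Esrp1 at -0.51. With the assembled transcripts the all-gene median was -0.84. The libraries of Lipo-MK1775 and the control did not overlap for 5 of 7 members, where 75.6% of all genes did not.

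In Free-MK1775+NLG919 tumours the member with the smallest p was Cdh1. It averaged 0.944 ± 0.499 nuclear TPM in Free-MK1775+NLG919 and 10.2 ± 4.34 in the negative control (SD, n = 2 each), a log2 change of -2.49 (SE 0.45), or -2.05 relative to the median. The limma adjusted p of 0.0932 missed the threshold, and the unadjusted p had rank 64 among 15440 genes. Without replicate 2, the library of high mitochondrial share, the change was -2.23 (limma adjusted p = 0.199), and without the 3 epidermal libraries it was -2.09 (limma adjusted p = 0.869). Without replicate 1 it was -2.76 and passed (limma adjusted p = 0.00563), as did Cldn4 at -2.52 (limma adjusted p = 0.00691), with the lone library assumed to vary like the other groups. In that setting 41.8% of all genes were called, beside 2 of 7 members. With both libraries Cldn4 was at -1.56 (limma adjusted p = 0.210), and at -0.59 without replicate 2. Cldn3 was at -0.33, and at 0.25 without replicate 2. Epcam was at -1.71, Esrp1 at -1.29, Zeb1 at -0.48 and named Vim at -0.24, or -0.56 with the assembled transcripts, none of them called. With both libraries and relative to the median, Cldn4 was at -1.11, Epcam at -1.27 and Esrp1 at -0.85. On that footing Cldn3 was at 0.11, Zeb1 at -0.04 and named Vim at 0.20. In this comparison 0 of 7 members and 0.0194% of all genes were called, and libraries did not overlap for 4 of 7 members, where 50.6% of all genes did not.

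Free-MK1775 and Lipo-MK1775+NLG called no member against the control, where 0.013% and 0.00648% of all genes were called by limma. At an unadjusted p under 0.05, 304 and 391 genes passed in those comparisons, among them 1 and 0 members. For Free-MK1775 against the control, Cdh1 was at -1.11 (SE 0.45, limma adjusted p = 1.00), Cldn3 at -0.50 and Cldn4 at -0.62. For Lipo-MK1775+NLG against the control, Cdh1 was at -0.20, Cldn3 at -0.53 and Cldn4 at -0.78, each with a limma adjusted p of 1.00. Named Vim was at -0.07 and -0.17 in these comparisons, and at -0.15 and -0.37 with the assembled transcripts. Libraries did not overlap for 4 of 7 members in Free-MK1775 and 3 of 7 in Lipo-MK1775+NLG, where 33.3% and 44.1% of all genes did not. All 4 comparisons share the control libraries.

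**Figure D4:**
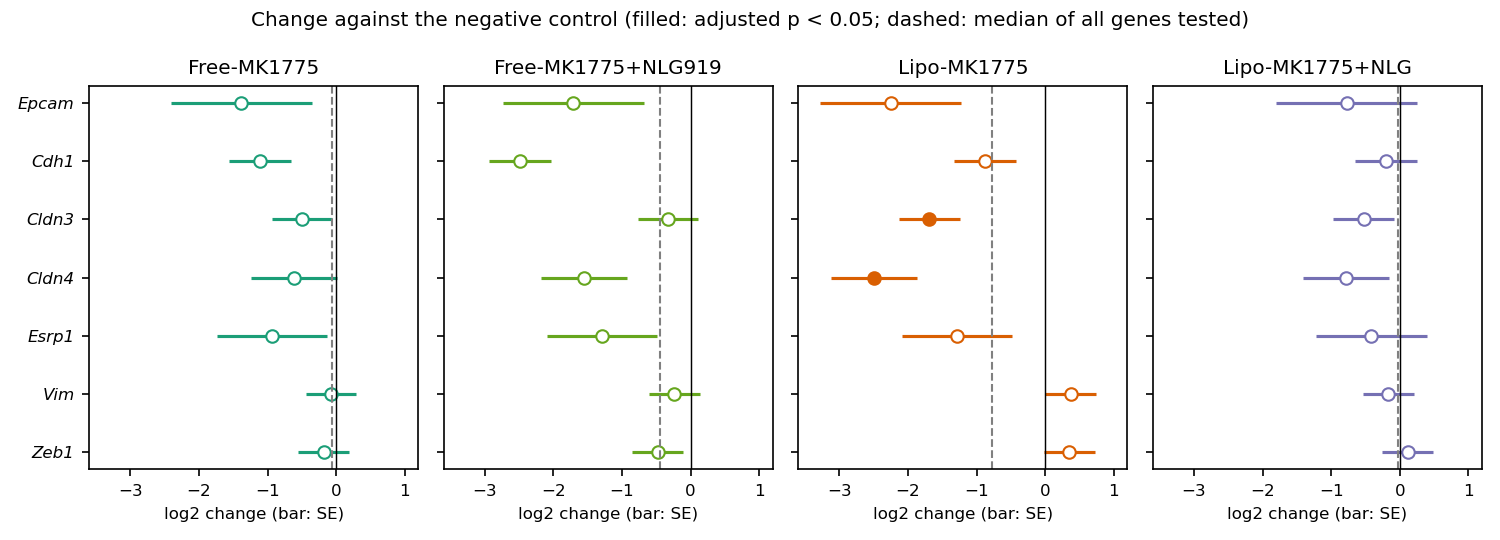
Log2 change of the 7 members tested against the negative control (horizontal axis, bars 1 SE) in the 4 treated groups, with filled points at an adjusted p under 0.05 and a dashed line at the median of all genes tested. Filled points are Cldn3 and Cldn4 in Lipo-MK1775, at -1.69 and -2.50.

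Between treated groups no member was called. In Lipo-MK1775 against Free-MK1775, where 3.25% of all genes were called, Cldn4 was at -1.88 (SE 0.62, limma adjusted p = 0.0765) and Cldn3 at -1.19 (SE 0.44, limma adjusted p = 0.0929), against an all-gene median of -0.71. In Lipo-MK1775+NLG against Lipo-MK1775, where 4.75% were called, Cldn4 was at 1.71 (limma adjusted p = 0.0813) and Cldn3 at 1.16 (limma adjusted p = 0.0888), against a median of 0.75. In Lipo-MK1775+NLG against Free-MK1775+NLG919, Cdh1 averaged 8.39 ± 0.674 nuclear TPM in Lipo-MK1775+NLG and 0.944 ± 0.499 in Free-MK1775+NLG919 (SD, n = 2 each), a log2 change of 2.29 (SE 0.45, limma adjusted p = 0.261) where 0.013% were called. In Free-MK1775+NLG919 against Free-MK1775, Cdh1 was at -1.38 (SE 0.45, limma adjusted p = 0.431), and 0% of genes were called, with 1662 of them at an unadjusted p under 0.05.

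The difference that NLG919 made was compared between forms by an interaction term. For Cdh1, addition of NLG919 went with a log2 change of 0.68 on Lipo-MK1775 and -1.38 on Free-MK1775. The direction on Lipo-MK1775 turned with scaling, at -0.08 with median-of-ratios and -0.20 with quantile normalization, while on Free-MK1775 it was -1.10 and -1.03 under these. On the nuclear scale the interaction was 2.06 (SE 0.64, limma adjusted p = 0.04999). The all-gene median of this term was 1.12 and 21.3% of genes were called, so 1 of 7 members lies near the background. Cldn4 was at 2.65 (SE 0.88, limma adjusted p = 0.0567). Named Vim was at -0.37, and at 0.58 with the assembled transcripts, with neither called. The Cdh1 call ended with median-of-ratios scaling (1.02, limma adjusted p = 0.246), and the split of all calls moved to 22 higher and 22 lower, against 3081 higher and 208 lower.

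Other genes of the epithelial programme were followed by lists chosen for their function. Among epithelial junction and polarity genes, 13 of 25 tested fell in Lipo-MK1775 against the control and 0 rose, with a median log2 change of -1.36 beside -0.78 for all genes. Of all genes, 19.6% were called lower and 1.51% higher in this comparison. These are the Lipo-MK1775 libraries with 64.1 and 56.0% mitochondrial FPKM. Dsg2, a desmosomal cadherin, changed by -2.29, Cgn, the tight-junction plaque protein cingulin, by -2.90, Crb3, an apical polarity protein, by -2.09, and Ctnna1, the catenin that ties cadherins to actin, by -1.61. Cgn was at 0.457 and 1.35 nuclear TPM in Lipo-MK1775 tumours, against 13.3 and 12.4 in the negative control. With median-of-ratios scaling 6 of 25 fell, where 2.53% of all genes were called lower. With quantile normalization also 6 of 25 fell, and the all-gene count for that setting is given in the last section. Without the 3 epidermal libraries 0 of 22 fell, with a median of -1.37, but there 0 of all genes were called. Over all alternatives, 0 to 20 of the list fell, while 0 to 7586 of all genes were called. Among epithelial regulators and surface proteins 2 of 12 tested fell and 0 rose, Elf3, an epithelial ETS factor, at -1.64 and Esrp2, the paralogue of Esrp1, at -1.52, and 0 fell with median-of-ratios scaling. The count of 2 of 12 lies near the 19.6% of all genes called lower.

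On the nuclear scale no gene of the mesenchymal lists rose in Lipo-MK1775, where 19.6% of all genes were called lower, 1.51% higher, and the all-gene median was -0.78. Among EMT transcription factors 1 of 9 tested fell and 0 rose, with a median of -0.72, which turned to 0.08 with median-of-ratios scaling. The 1 that fell was Snai1, a repressor of Cdh1, at -1.24. It was at 17.6 and 19.8 nuclear TPM in Lipo-MK1775 tumours, against 46.2 and 44.4 in the negative control. Among mesenchymal adhesion and matrix genes 6 of 18 fell and 0 rose, with a median of -0.82, close to that of all genes, and the list's median turned to 0.05 with that scaling. The 4 with the smallest p were Tnc, Axl, Fn1 and Itga5, at -2.71, -1.79, -2.24 and -1.34. In the TGF-beta pathway, a main inducer of EMT, 6 of 14 fell and 0 rose, with a median of -1.30, among them the ligand Tgfb1 at -1.29, the signal transducer Smad3 at -1.30, the TGF-beta activator Thbs1 at -2.14 and the latent TGF-beta binding protein Ltbp1 at -1.17. With median-of-ratios scaling 0 members of these 3 lists fell and 1 matrix gene rose, where 385 of all 15239 genes tested fell and 441 rose. In the other 3 comparisons against the control no member of the 5 lists was called by limma. In Free-MK1775+NLG919, 21.8% of all genes had an unadjusted p under 0.05, and so did 9 of 25 junction genes. The same held for 2 of 12 epithelial regulators, 2 of 9 EMT factors, 5 of 18 matrix genes and 4 of 14 TGF-beta genes.

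Markers of other cell types were summed in the same libraries. Endothelial markers summed to 41.0 and 23.0 nuclear TPM in Lipo-MK1775 tumours, against 144 and 103 in the negative control, and 6 of 8 fell, or 1 of 8 with median-of-ratios scaling, where 19.6% and 2.53% of all genes were called lower. Fibroblast markers, which mark cells that also express Vim, summed to 411 and 842 nuclear TPM in Lipo-MK1775, against 679 and 571 in the control, with 0 of 10 called. Macrophage markers summed to 1686 and 2035 nuclear TPM in Lipo-MK1775, against 1528 and 1934 in the control, with 0 of 8 called, or 2 of 8 higher with median-of-ratios scaling. With that scaling 441 of all 15239 genes tested were called higher. Neutrophil markers summed to 548 and 1967 nuclear TPM in Lipo-MK1775, against 1396 and 989 in the control, with 1 of 8 lower by the test and a median log2 change of -1.18. Skeletal muscle markers summed to 15.6 and 53.1 nuclear TPM in Lipo-MK1775, against 257 and 73.8 in the control, with 0 of 5 called and a median of -2.16. The 4 tumour epithelial keratins summed to 938 and 1467 nuclear TPM in Lipo-MK1775, against 1269 and 1852 in the control, with 0 called and a median of -0.59. For T and NK cells 0 of 6 and for adipocytes 0 of 4 markers were called, with medians of 0.03 and 0.15. The part of these cells in the levels of the claudins, Vim and Zeb1 was not tested.

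Genes whose pattern over the 10 libraries was most like that of Epcam were Fa2h, Clca3a2, Gsdmc, Serpinb3b and Acpp. Likeness was the mean absolute difference of centred log2 values, which was 0.213 for Fa2h and 0.321 for Acpp, beside a median of 0.938 over all other genes. Among the genes most like named Vim were S100a6, Erg, Stmn4 and Gnl2, at 0.178 to 0.203 beside a median of 0.617, and they share the library scaling with it.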

How the data were processed

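RNA-seq of 10 tumour libraries was deposited as FPKM per transcript (fragments normalised for transcript length and library size) for 161762 transcripts. Per the submitters' processing notes, the authors used FastQC, Trim Galore, HISAT2 and StringTie on GRCm39, with no versions or strand setting given. Transcript length was also taken from the deposited table. From there, transcripts were summed by gene name and rescaled to the sum of nuclear transcripts, since mitochondrial share differed. The 21051 transcripts with no gene name were left out of the main sums and 14859 of them were added by locus in an alternative. Genes at 1 or more in at least 2 libraries were tested with limma 3.58.1 (R 4.3.3, trend, two-sided) on log2(value + 1), at an adjusted p of 0.05. Read depth is not stated. It was gauged from the commonest step of FPKM times length, and no intervals were computed. Members, lists and comparisons were chosen with earlier results of these data known. All members are named. Up to 4 genes per list with the smallest unadjusted p, and the 5 most alike in pattern to Epcam and Vim, were named, except 1 that is not reported here.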

Additional observations from a re-analysis of the deposited data

Results flagged for a closer look

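For Cdh1 the change that went with NLG919 differed between forms, with a log2 interaction of 2.06 (SE 0.64, limma adjusted p = 0.04999). On the nuclear scale Cdh1 was higher in both Lipo-MK1775+NLG libraries than in both Lipo-MK1775 libraries and lower in both Free-MK1775+NLG919 libraries than in both Free-MK1775 libraries. It was flagged because both effects of the same contrast differ by the test of the difference. With median-of-ratios scaling the Lipo-MK1775+NLG libraries, at 6.94 and 6.57, lay among those of Lipo-MK1775, at 6.45 and 8.01, and the log2 change turned to -0.08, or -0.20 with quantile normalization. The median of all genes for this term was 1.12, 21.3% of genes were called, and both Lipo-MK1775 libraries had a high mitochondrial share.

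The assembled transcript MSTRG.13487.2 of the Vim locus carries no gene name and lies outside the named sum. In some treated libraries it was above both controls, which were at 1.36 and 0.00271 nuclear TPM. It was at 1.738 in Free-MK1775 replicate 1, 5.228 in Free-MK1775+NLG919 replicate 2, 2.323 in Lipo-MK1775 replicate 1 and 606.3 in Lipo-MK1775 replicate 2. Values of the other treated libraries are not given. Except for 606.3, these values are small beside the whole locus, at 2955 to 4955 nuclear TPM over all libraries. In Lipo-MK1775 replicate 2 the named transcript ENSMUST00000193675 was also at 760 nuclear TPM, against 0.756 and 2.93 in the negative control.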

How the results depend on the processing

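Each choice was changed on its own over 63 pairs of member and comparison and 21 settings, of which 10 leave out 1 library. Of 1250 alternative values, none reversed a called direction; 61 changed sign with no call on either side, most often for Vim. In Lipo-MK1775 against the control the 2 calls became 0 with median-of-ratios scaling, quantile normalization, no filter on low values, or without the epidermal libraries, a setting chosen after seeing the data that also left 0 of all genes called by limma (1437 at an unadjusted p under 0.05). With the replicate block 1 call was left. For the interaction the 1 call became 2 on deposited FPKM, 2 with assembled transcripts added, and 0 with median-of-ratios scaling, quantile normalization, no filter, the replicate block, only the groups compared, or without the epidermal libraries. Lipo-MK1775 against Free-MK1775 and Lipo-MK1775+NLG against Lipo-MK1775, with 0 calls, had 2 each on deposited FPKM. They had 1 each with assembled transcripts added and 1 each with only the groups compared, and the cause was not tested. On deposited FPKM 48.5% and 55% of all genes were called in these comparisons, in the same order, and 47.2% for the interaction. The member counts on that scale do not stand above this background.

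Without 1 library in turn, calls ranged from 0 to 2 in Lipo-MK1775 against the control, Lipo-MK1775 against Free-MK1775, Lipo-MK1775+NLG against Lipo-MK1775, and the 3 comparisons with Free-MK1775+NLG919, and from 0 to 3 for the interaction. The 2 in the comparisons with Free-MK1775+NLG919 came without its replicate 1. The settings without the high mitochondrial libraries leave no Lipo-MK1775 library, so its comparisons could not be fitted. Replicate numbers did not pair libraries: correlations of deviations between groups ran from -0.196 to 0.065. With the replicate block, Cldn3 in Lipo-MK1775 (control as reference) had an adjusted p of 0.0501 and Cdh1 in the interaction 0.0658. Of all genes tested, 3256 were called in Lipo-MK1775 against the control, and 5939 on deposited FPKM, 826 with median-of-ratios scaling, 653 with quantile normalization, 722 with no filter, 6541 with assembled transcripts, 2129 with the block, 6356 with only the groups compared and 0 to 7586 without 1 library in turn. Over all settings the count ran from 0 to 8806 for the interaction (3289), 1 to 6898 for Lipo-MK1775 against Free-MK1775 (502), 0 to 7348 for Lipo-MK1775+NLG against Lipo-MK1775 (734), 1 to 6403 for Free-MK1775+NLG919 against the control (3), 1 to 6011 between the 2 combinations (2), 0 to 5662 for Free-MK1775+NLG919 against Free-MK1775 (0), 1 to 20 for Free-MK1775 (2) and 0 to 20 for Lipo-MK1775+NLG (1) against the control. Values resting on few reads, such as Cldn4 in Lipo-MK1775 and Cldn7 everywhere, limit what can be seen.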
